A study of Saccharomyces cerevisiae with 20 samples.

Results

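The 54 genes described here encode enzymes of amino acid biosynthesis in budding yeast, *Saccharomyces cerevisiae*. They were chosen by systematic ORF name for their pathway. The rule uses no measured value, although the list was drawn up with earlier results of these data known: 8 genes of arginine, 6 of histidine, 10 of branched-chain, 10 of aromatic, 7 of lysine, 5 of threonine, 4 of serine and 4 of amide and glutamate synthesis, out of 6685 ORFs in each file, of which 5985 nuclear protein-coding genes were analysed. The marker genes HIS3, LEU2 and TRP1 were not among them.

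The cells carried a myc-tagged Gcn5 in a strain that the labels call BQS1350, and every sample shared this strain. The methods give its background as By4742, *MATα*, with the alleles his3-1, leu2-0, lys2-0 and ura3-0. Chromatin immunoprecipitation on tiling arrays (ChIP-on-chip) measured Gcn5, histone H3 acetylated at lysine 18 (H3K18ac), histone H4 acetylated at lysine 16 (H4K16ac) and total H3 in 5 samples. Sample A was taken from log-phase cells in rich YPD medium, sample B 1 h after KCl was added to 1 M, sample C after the cells had adapted to growth in KCl, sample D 1 h after return to YPD without KCl, and sample E after growth had recovered there. YPD is a rich medium that holds amino acids.

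Gcn5 is the catalytic subunit of the SAGA coactivator and acetylates lysines in the tail of histone H3. Enzymes of amino acid biosynthesis are classical targets of the activator Gcn4, which is made in quantity when amino acids run short and which recruits SAGA to promoters. In rich medium most of these genes are expressed at a basal level. H4K16ac is laid down mainly by a different acetyltransferase, Sas2, and H3 measures histone density.

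Each antibody and sample has 1 file. Whether it combines the 2 cultures of the study or holds 1 of them is not stated. There are therefore no replicate errors, no test between samples was possible, and the differences below are described by their size, by the number of genes that share them and by the same values over all 5985 genes. All values are log-scale ChIP signals whose units are arbitrary and differ between antibodies, after the 5 samples of an antibody were brought to one median. A gene is covered by 38 bins, with 9 in the 5′ intergenic region (5′IGR), 20 in the ORF and 9 in the 3′IGR, and a level is the mean over a region. A difference of at least 0.2 was counted as higher or lower.

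LYS2 (YBR115C), the aminoadipate reductase of lysine synthesis, is given by the methods as a mutated locus in this strain and was left out of every median and count, which leaves 53 genes. H3 over its ORF was 0.414, 0.269, 0.480, 0.572 and 0.250 in samples A to E, and Gcn5 over its ORF was lowest in sample B, at -0.053, and highest in sample E, at 0.085. LEU2 and URA3, mutated in the same background, had ORF H3 of 0.215 to 0.600 and of 0.248 to 1.251. Values are thus listed at these loci as at other genes, and whether the loci are present in the cells was not tested. The values at these loci are therefore not read as chromatin levels.

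H3K18ac over the 5′IGR was lowest in the 53 genes 1 h into KCl and highest 1 h after its removal. Their median levels were 0.468, 0.345, 0.451, 0.729 and 0.475 in samples A to E, while the medians over all 5985 genes stayed between 0.480 and 0.525. Sample D was the highest of the 5 samples in 31 of 53 genes (58.5%), against 24.6% of all genes. It was the lowest in none of the 53, a count of 0, against 11.3% of all genes. Sample B was the lowest in 26 of 53 genes (49.1%), against 34.5% of all genes. The median of the 53 genes stood at percentile 65.4 of all genes in sample D and at percentile 46.3 in sample A.

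**Figure D1:**
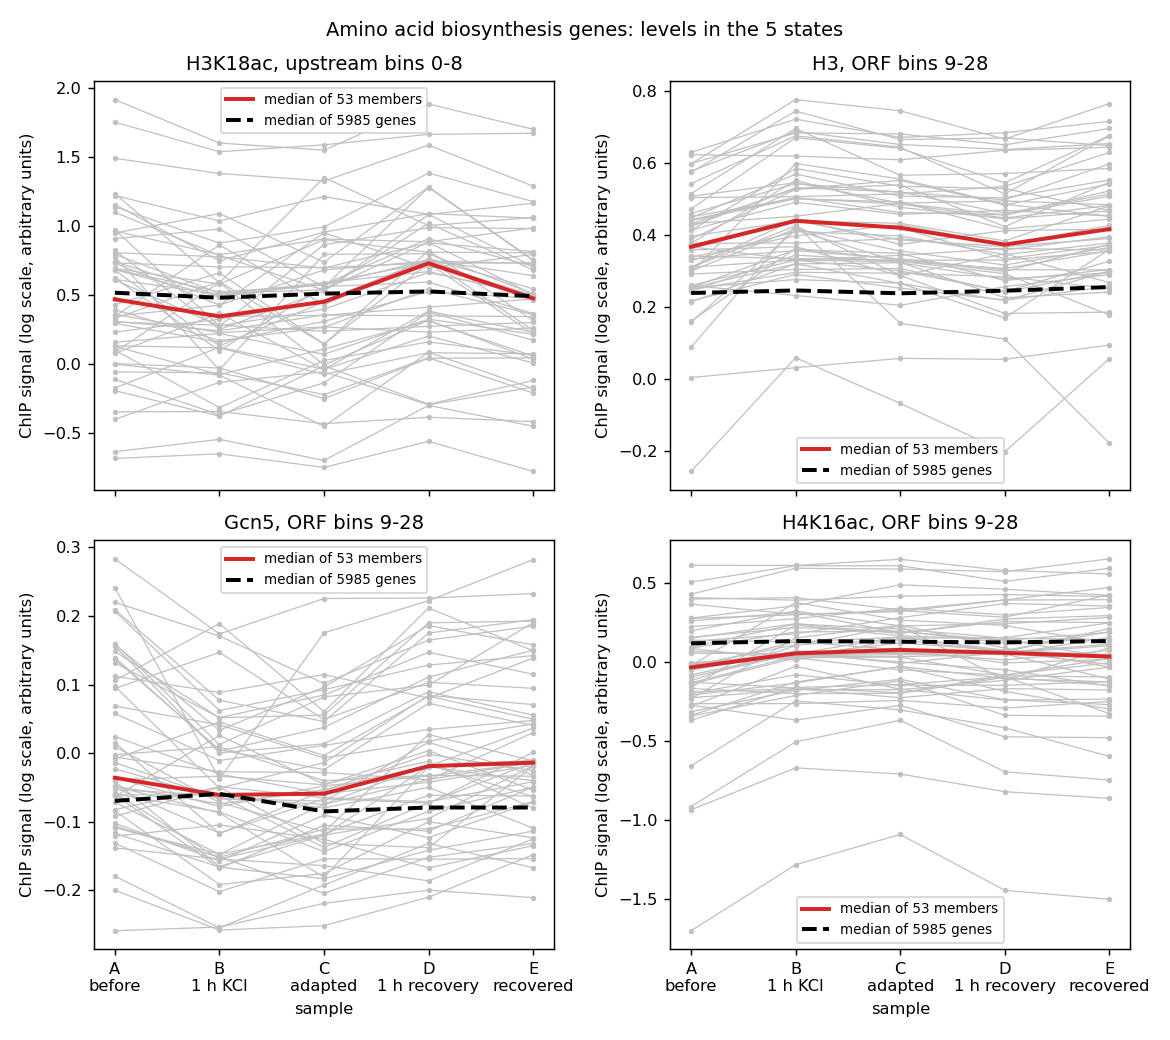
Levels of H3K18ac over the 5′IGR and of H3, Gcn5 and H4K16ac over the ORF in samples A to E (ChIP signal, log scale, arbitrary units). Each grey line is 1 of 53 genes, the red line is their median and the dashed line the median of all 5985 genes. The red line for H3K18ac reaches 0.729 in sample D, and that for H4K16ac is lowest, at -0.032, in sample A.

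Between samples D and C, the median difference in 5′IGR H3K18ac was 0.203, against 0.042 over all genes and 0.047 over the 2266 genes of 1-2 kb, the length of 40 of the 54 genes. It was higher by at least 0.2 in 27 of 53 genes (50.9%), where 20.8% of all genes were, and lower by as much in 4, where 13.7% of all genes were. The difference was above 0 in 44 of 53 genes, against 59.4% of all genes. Set against sample E instead, sample D was higher by at least 0.2 in 21 of 53 genes and lower by as much in 0. Over all genes the shares were 18.1% and 7.54%.

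GDH1 (YOR375C), the NADP-dependent glutamate dehydrogenase that assimilates ammonium, had the largest such difference. Its 5′IGR H3K18ac was 0.907, 0.976, 0.556, 1.277 and 0.749 in samples A to E, a difference of 0.720 between samples D and C. The RefSeq table places a divergent neighbour 148 bp upstream of GDH1, against a median of 506 bp in the 54 genes, so its 5′IGR may be short. HIS1 (YER055C), the ATP phosphoribosyltransferase that opens histidine synthesis, had 0.330, 0.595, 0.145, 0.820 and 0.315. In both genes sample D was the highest and sample C the lowest of the 5 samples.

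HOM2 (YDR158W), the aspartate-semialdehyde dehydrogenase of the threonine pathway, had 0.821, 0.250, 0.528, 1.082 and 0.705. The RefSeq table places its upstream neighbour 24 bp away, and that of CPA1 56 bp away, against a median of 506 bp in the 54 genes. The 5′IGR starts midway to the neighbour, but the annotation that placed the bins is not given. If it held these neighbours, the 5′IGR values of HOM2 and CPA1 rest on very little sequence. ILV2 (YMR108W), the catalytic subunit of acetolactate synthase, had -0.111, -0.367, -0.136, 0.375 and 0.173. HOM2 and ILV2 were lowest in sample B and highest in sample D. ARG4 (YHR018C), argininosuccinate lyase, had -0.001, -0.080, -0.451, 0.086 and -0.177 and differed by 0.537 between samples D and C, mainly through its low value in sample C. HIS4 (YCL030C), a multifunctional histidine enzyme and long-used reporter of Gcn4 activity, had 0.294, 0.158, 0.308, 0.524 and 0.475, so that its level in sample E stayed near that in sample D.

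Counts per pathway rest on 4 to 10 genes each, and differences between pathways were not tested. Over all genes, sample D was the highest in 24.6%. Sample D was the highest in 7 of 8 arginine genes, 4 of 4 serine genes, 4 of 6 histidine genes, 6 of 10 aromatic genes, 5 of 10 branched-chain genes, 3 of 5 threonine genes and 2 of 4 amide and glutamate genes. It was the highest in 0 of 6 lysine genes, whose median difference between samples D and C was -0.064. LYS4 (YDR234W), homoaconitase, had 1.232, 0.588, 1.349, 1.002 and 1.060 in samples A to E, with a deep minimum in sample B and its maximum in sample C. LYS12 (YIL094C), homoisocitrate dehydrogenase, had 0.347, 0.425, 0.949, 0.694 and 0.794, also highest in sample C. Outside this pathway ARG8, the acetylornithine aminotransferase, was the arginine gene that went the other way, with -0.295 in sample D and -0.057 in sample C, and it is named for that after its values were seen.

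**Figure D2:**
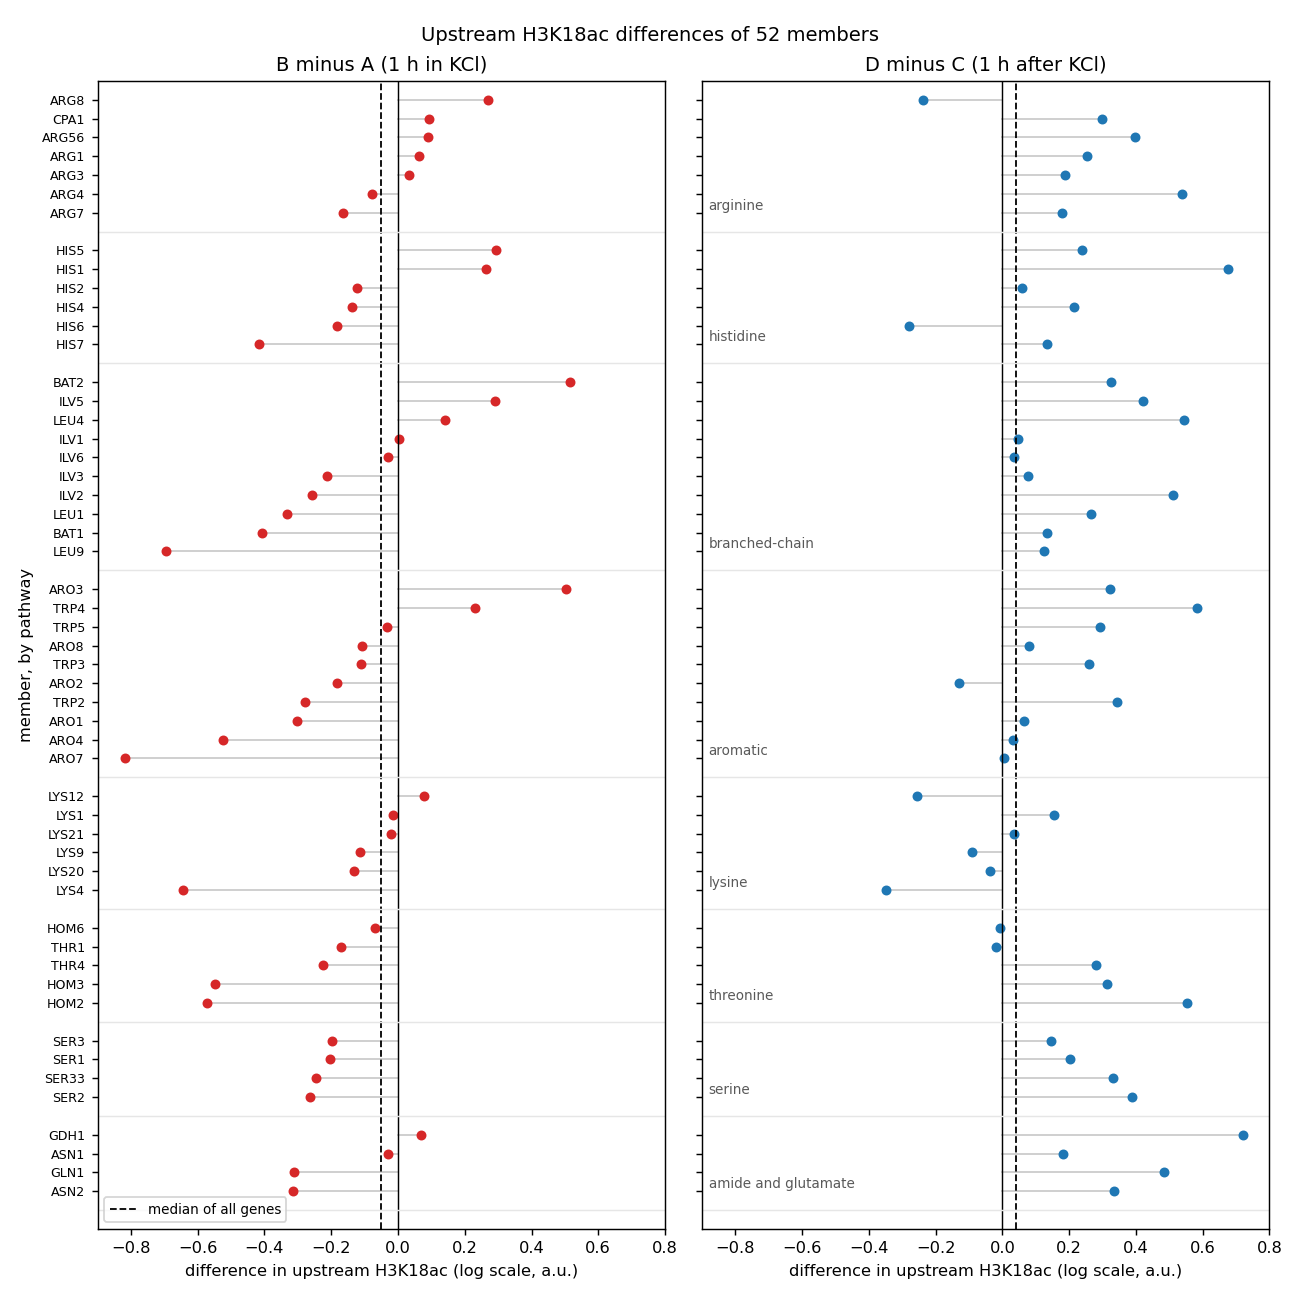
Difference in 5′IGR H3K18ac (log scale, arbitrary units) between samples B and A, left, and between samples D and C, right, for 52 of the 53 genes grouped by pathway. Points right of the solid line are higher in sample B or D, and the dashed line is the median of all genes. In the right panel 43 of 52 points lie above 0, and 4 of 6 lysine genes lie below it.

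Between samples B and A, 5′IGR H3K18ac had a median difference of -0.124 in the 53 genes and -0.051 in all genes. It was lower by at least 0.2 in 19 of 53 genes (35.8%), against 22.4% of all genes, and higher by as much in 7 of 53 (13.2%), close to the 13.1% of all genes. All 4 serine genes and all 5 threonine genes were lower in sample B than in A, with medians of -0.225 and -0.224. The median over all genes was also below 0, at -0.051, so most genes were lower in sample B. Arginine genes had a median of 0.048, and 0 of 8 were lower by 0.2.

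The 3 largest falls were in ARO7, LEU9 and LYS4. ARO7 (YPR060C), the chorismate mutase at the branch to phenylalanine and tyrosine, had -0.042 in sample B and 0.775 in sample A, and its other samples lay between 0.509 and 0.798. LEU9 (YOR108W), an isopropylmalate synthase, had 0.275 in sample B and 0.971 in sample A, with 0.863 to 0.986 in samples C to E. In both genes sample B alone stood below the others, by more than the range of the other 4 samples.

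The 3 largest rises were in BAT2, ARO3 and HIS5. BAT2 (YJR148W), the cytosolic branched-chain aminotransferase, had 0.861 in sample B and 0.344 in sample A, and 0.430, 0.755 and 0.464 in samples C to E. ARO3 (YDR035W), a DAHP synthase at the entry to aromatic synthesis, had 0.590 in sample B and 0.086 in sample A, and -0.006, 0.316 and 0.036 in samples C to E. HIS5 (YIL116W), the histidinol-phosphate aminotransferase, had 0.122 in sample B, -0.173 in sample A and a maximum of 0.202 in sample D. BAT2 and ARO3 therefore had both of their highest levels in the samples taken 1 h after a change of medium.

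Some paired enzymes differed from each other. BAT1, the mitochondrial counterpart of BAT2, had 0.747 in sample B and 1.154 in sample A, and ARO4, the second DAHP synthase, had 0.098 in sample B and 0.622 in sample A. Both were added as counterparts after their values were seen. SER3 and SER33, both phosphoglycerate dehydrogenases, had 0.485 and 0.495 in sample B, against 0.682 and 0.741 in sample A. ASN1 and ASN2, the asparagine synthetases, had 0.776 and 1.599 in sample B and 0.805 and 1.913 in sample A.

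H3 over the 5′IGR was higher in sample B than in A in most of the genes. Medians of 5′IGR H3 were -0.492, -0.345, -0.366, -0.459 and -0.345 in samples A to E, and those of all genes lay between -0.297 and -0.221. The difference between samples B and A was above 0 in 44 of 53 genes, against 61.6% of all genes, with a median of 0.119 against 0.044. It was at least 0.2 in 14 of 53 genes (26.4%), against 16.4% of all genes, and lower by 0.2 in 2, against 8.62%.

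ILV5 (YLR355C), the acetohydroxyacid reductoisomerase, had the largest difference in H3, with -0.698 in sample B and -1.512 in sample A, and -1.211, -1.686 and -1.596 in samples C to E. HIS1 had -0.476 in sample B and -1.009 in sample A. ARG56 (YER069W), which encodes acetylglutamate kinase and the following reductase of the arginine pathway, had -0.862 in sample B and -1.343 in sample A. In ILV5 and HIS1 sample B was the highest of the 5, whereas in ARG56 sample C, at -0.809, was higher still.

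ILV2 had the largest loss, with -1.359 in sample B and -0.799 in sample A, but sample E was as low, at -1.337. CPA1 (YOR303W), the small subunit of carbamoyl phosphate synthetase, had -1.153 in sample B and -0.759 in sample A. ARO3 had -1.263 in sample B, -1.063 in sample A and -1.356 in sample E.

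Relative to H3, subtracted bin by bin on the log scale, 5′IGR H3K18ac had medians of 0.961, 0.673, 0.870, 1.066 and 0.920 in samples A to E. Between samples B and A the median difference was -0.237 in the 53 genes and -0.085 in all genes. It was lower by at least 0.2 in 33 of 53 genes (62.3%), against 33.9% of all genes, and higher in 5, against 15.9%. Between samples D and C it was higher by at least 0.2 in 29 of 53 genes (54.7%), against 27.5% of all genes, and lower in 2, against 15.4%. ARO3 and BAT2 stayed exceptions, with 1.853 and 1.103 in sample B against 1.149 and 0.504 in sample A. ILV5 had, relative to H3, 1.066 in sample B and 1.589 in sample A, and without that correction 0.368 in sample B and 0.077 in sample A.

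**Figure D3:**
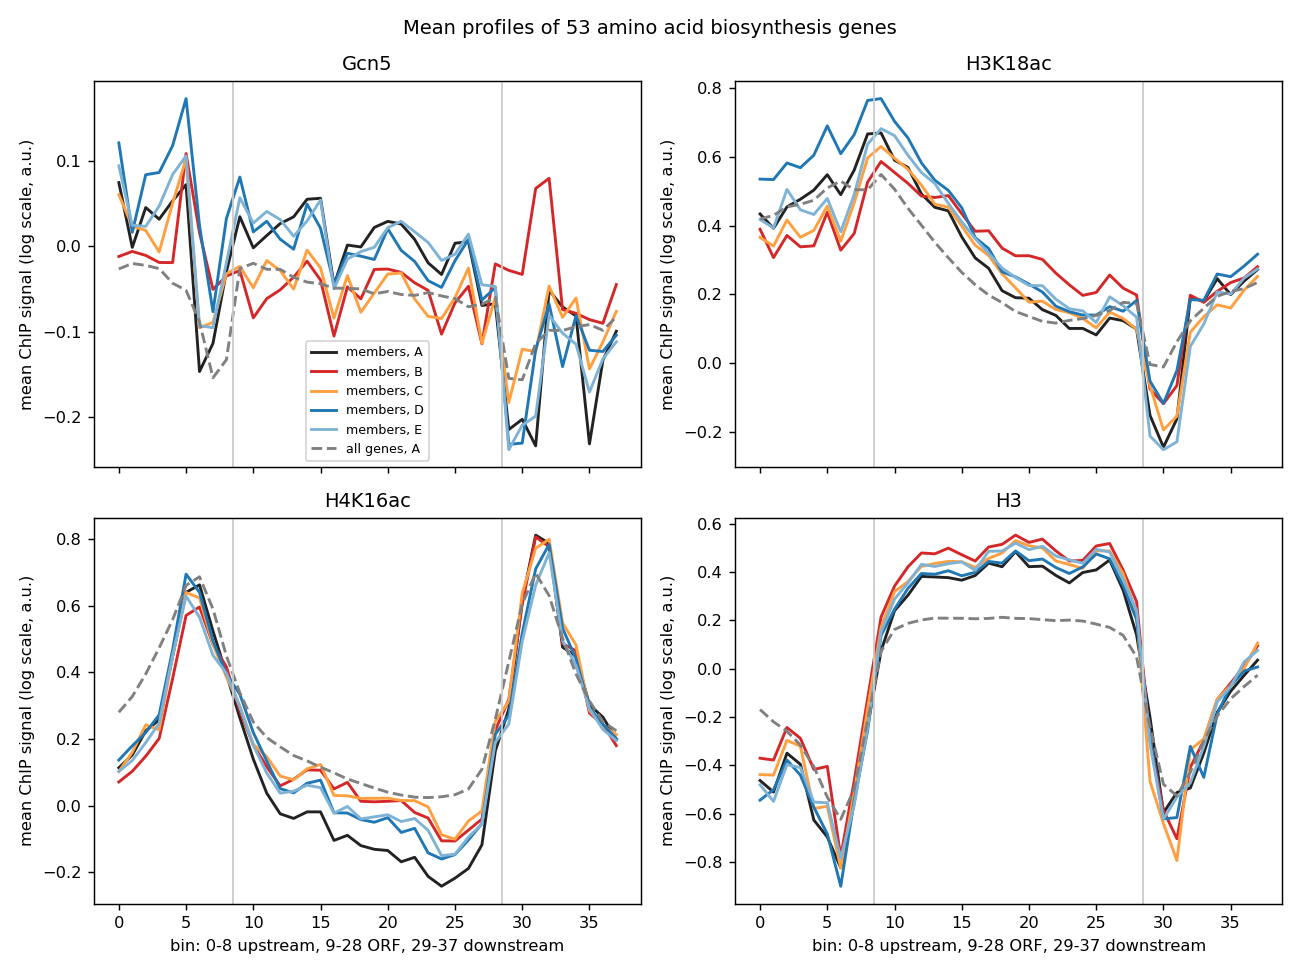
Mean signal of 53 genes along 38 bins (0-8 5′IGR, 9-28 ORF, 29-37 3′IGR; log scale, arbitrary units) in samples A to E, with the mean of all genes in sample A dashed. H3 is lowest at bin 6 and highest at bin 19 in every sample, H3K18ac peaks at bin 9 and is highest there, at 0.770, in sample D.

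The mean profiles show where along the genes these levels lie. H3 was lowest in bin 6 of the 5′IGR and highest in bin 19, near the middle of the ORF, in all 5 samples. The contrast was deeper than in all genes, with -0.825 and 0.485 at the 2 bins in sample A for the 53 genes, against -0.624 and 0.209 for all genes. H3K18ac was highest in bin 9, the first bin of the ORF, in all 5 samples, at 0.670, 0.587, 0.630, 0.770 and 0.682. The Gcn5 profile was highest in bin 5 in samples B to E and reached 0.173 there in sample D.

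The median H3K18ac difference between samples D and C was largest in bins 5 and 6, at 0.235 and 0.229, against 0.052 and 0.057 in all genes, and was between -0.008 and 0.042 in bins 18 to 24. Between samples B and A the median was -0.172 at bin 6 and turned positive from bin 12 on, reaching 0.135 at bin 19. H3K18ac was thus lower over the 5′IGR and higher within the ORF. Over the whole ORF its median difference between samples B and A was 0.063, against 0.014 in all genes, with 40 of 53 genes above 0 against 54.9% of all genes. Relative to H3 that median was -0.033.

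**Figure D4:**
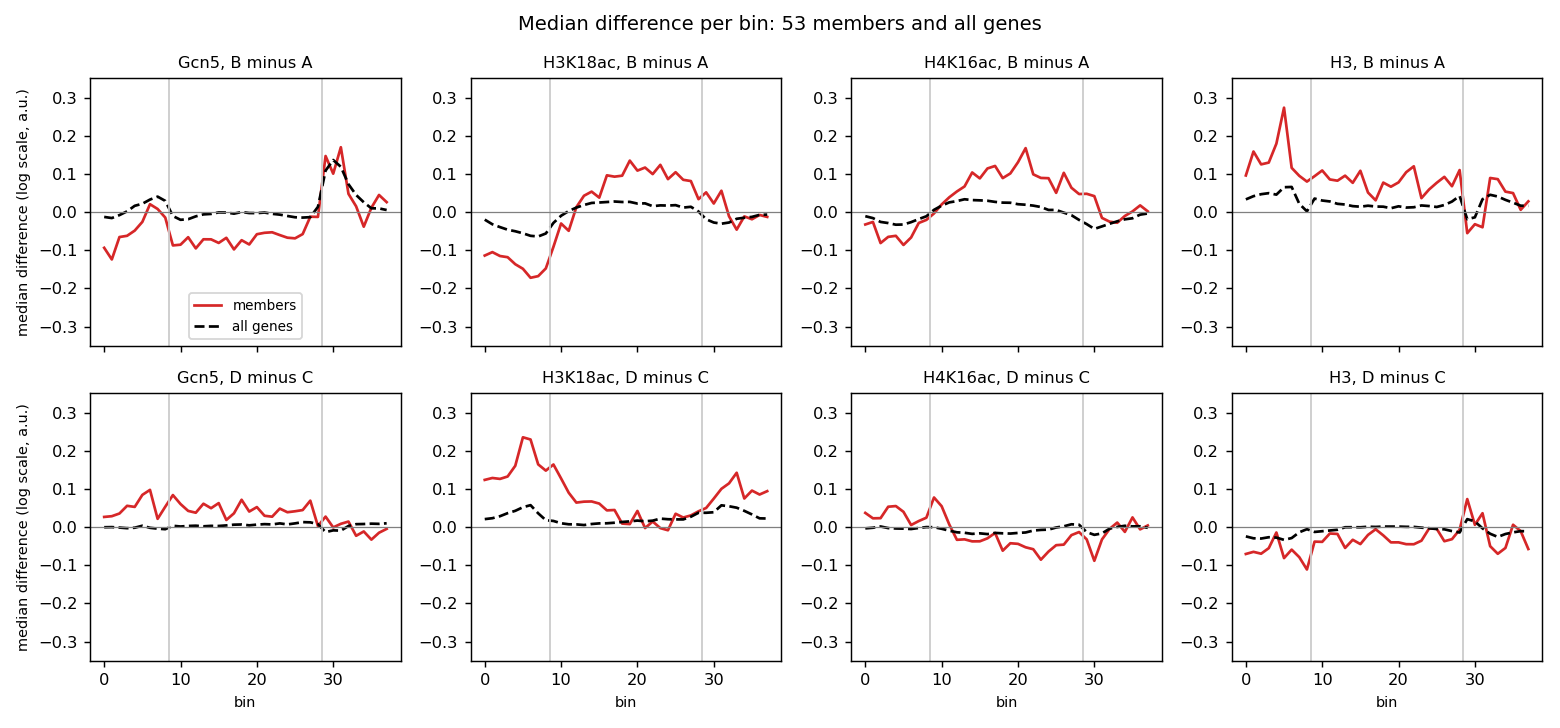
Median difference per bin (log scale, arbitrary units) between samples B and A, upper row, and between samples D and C, lower row, for Gcn5, H3K18ac, H4K16ac and H3 in 53 genes (red) and in all 5985 genes (dashed). Vertical lines mark the ends of the ORF. The red H3K18ac line lies below the dashed one over the 5′IGR in the upper row, -0.172 at bin 6, and above it in the lower row, 0.235 at bin 5.

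Gcn5 over the 5′IGR differed in both directions. Its median levels in the 53 genes were 0.020, -0.048, -0.044, 0.024 and 0.005 in samples A to E, and those of all genes were -0.096, -0.049, -0.067, -0.081 and -0.100. The 53 genes stood at percentile 69.4 of all genes in sample A, 50.1 in sample B and 68.7 in sample D. Between samples B and A the median difference was -0.025, against 0.046 in all genes, but over the 4 bins nearest the ORF it was 0.020. 21 of 53 genes were above 0, against 62.2% of all genes. Equal numbers passed 0.2 in each direction, 7 higher (16.8% of all genes) and 7 lower (7.75% of all genes).

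Aromatic genes had the highest pathway median, 0.133, with 4 of 10 genes higher by at least 0.2 in sample B, and branched-chain genes had -0.149, with 0 of 10 higher and 2 lower. TRP2 (YER090W), a subunit of anthranilate synthase, had 0.352 in sample B and -0.229 in sample A, and between -0.114 and 0.119 in samples C to E. LYS12 had 0.407 in sample B and -0.167 in sample A. CPA1, whose 5′IGR may be very short, had 0.580 in sample B and 0.036 in sample A, and 0.355, 0.542 and 0.267 in samples C to E.

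HOM2, whose 5′IGR may span few bases, had the largest fall, with -0.074 in sample B and 0.333 in sample A. Its levels in samples D and E were lower still, at -0.547 and -0.634. LYS4 had -0.104 in sample B against 0.253 in sample A, and 0.322 to 0.485 in samples C to E. ASN1 had -0.024 in sample B against 0.307 in sample A, and 0.053, 0.391 and 0.338 in samples C to E.

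After removal of KCl, 5′IGR Gcn5 was higher in sample D than in C by at least 0.2 in 8 of 53 genes (15.1%), against 4.26% of all genes. It was lower by as much in 2 genes, against 7.34% of all genes. The median difference was 0.030, against -0.005 in all genes. GLN1 (YPR035W), glutamine synthetase, had 0.683 in sample D and 0.171 in sample C. GDH1 had 0.301 in sample D and -0.130 in sample C, and HIS1 0.743 in sample D and 0.347 in sample C. LEU4, an isopropylmalate synthase, differed by 0.410. GLN1, GDH1 and HIS1 also had higher H3K18ac in sample D than in C.

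In each pathway the gene with the highest 5′IGR Gcn5 before stress was picked out. ILV5 had 0.613, ASN2 0.608, HIS1 0.502, SER3 0.484 and HOM2 0.333. TRP3, a partner of TRP2 in anthranilate synthase, had 0.387, LYS4 0.253 and ARG4 0.094. SER3 varied least of these, between 0.448 and 0.496 over the 5 samples. Its 5′IGR is also the site of SRG1, a non-coding transcript that represses SER3 in rich medium, and its H3 there was among the lowest of the 53 genes, between -1.820 and -1.461.

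Over the ORF, Gcn5 was lower 1 h into KCl in most of the genes, by small amounts. Medians were -0.036, -0.061, -0.059, -0.019 and -0.014 in samples A to E, against -0.070, -0.059, -0.085, -0.079 and -0.079 in all genes. 10 of 53 genes (18.9%) were higher in sample B than in A, against 56.0% of all genes. Sample B was the lowest of the 5 in 26 of 53 genes (49.1%), against 22.9% of all genes, and the highest in 4, against 42.7%. HOM2 alone was lower by at least 0.2 (2.96% of all genes) and 0 genes were higher (3.38%). HOM2 had -0.038 in sample B and 0.241 in sample A, and 0.175, 0.222 and 0.282 in samples C to E.

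GDH1 had an ORF Gcn5 of 0.000 in sample B against 0.156 in sample A. ILV2 had -0.051 in sample B against 0.097 in sample A. The lysine, threonine, serine and amide and glutamate genes were all lower in sample B, 19 of 19, whereas 4 of 6 histidine genes were higher. The 3 largest rises stayed under 0.1: ARG3 (YJL088W), ornithine carbamoyltransferase, had 0.026 in sample B against -0.063 in sample A, HIS1 0.189 against 0.106, and CPA1 0.045 against -0.008. Sample C was as low as B in the median, and between samples D and C 43 of 53 genes were above 0, against 54.0% of all genes, with a median difference of 0.042.

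H3 over the ORF was higher in sample B than in A in 49 of 53 genes (92.5%), against 60.8% of all genes. The medians were 0.367, 0.439, 0.420, 0.373 and 0.416 in samples A to E, above the 0.238 to 0.256 of all genes. Sample B was the highest in 32 of 53 genes (60.4%), against 35.1% of all genes, and sample A the lowest in 34, against 32.7%. 5 genes passed 0.2, against 3.84% of all genes: ILV5 with 0.427 in sample B against 0.089 in sample A, ARO7 with 0.060 against -0.255, HOM2 with 0.598 against 0.295, ILV3 with 0.414 against 0.158, and ARG3 with 0.363 against 0.161. The median difference between samples B and A was 0.081. Against sample E in place of A it was 0.018.

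H4K16ac over the ORF was lowest before stress in 35 of 53 genes (66%), against 26.4% of all genes. The medians were -0.032, 0.057, 0.079, 0.060 and 0.036 in samples A to E, and those of all genes lay between 0.120 and 0.135. Between samples B and A 43 of 53 genes were above 0, against 58.3% of all genes, with a median of 0.102 against 0.019. 11 genes (20.8%) were higher by at least 0.2, against 4.19% of all genes, and 0 lower, against 2.54%. Relative to H3 the median was 0.014, and sample A was the lowest in 15 of 53 genes, against 19.7% of all genes. Against sample E in place of A the uncorrected median was 0.020.

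All 10 branched-chain genes had their lowest ORF H4K16ac in sample A, and 6 of them were higher by at least 0.2 in sample B. ILV5 had the lowest level of the 53 genes, -1.699, -1.281, -1.089, -1.443 and -1.500 in samples A to E. ILV2 had -0.913, -0.503, -0.366, -0.693 and -0.745. LEU1, isopropylmalate isomerase, had -0.655, -0.245, -0.301, -0.414 and -0.595. All 3 had their lowest level in sample A and their highest in one of the KCl samples.

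BAT2 had 0.379 in sample B against -0.021 in sample A, BAT1 0.236 against -0.159, and ILV3, the dihydroxyacid dehydratase, 0.155 against -0.231. LEU1, BAT1 and ILV3 are named here to complete the group of 6. BAT2 differed by 0.400 in ORF H4K16ac and by 0.002 in ORF H3. Of these 6 genes, ILV5 and ILV3 were also higher by at least 0.2 in ORF H3, and the other genes of the group were not. In GLN1 ORF H4K16ac was -0.365 in sample B and -0.271 in sample A, with -0.471 in sample D and -0.477 in sample E.

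**Figure D5:**
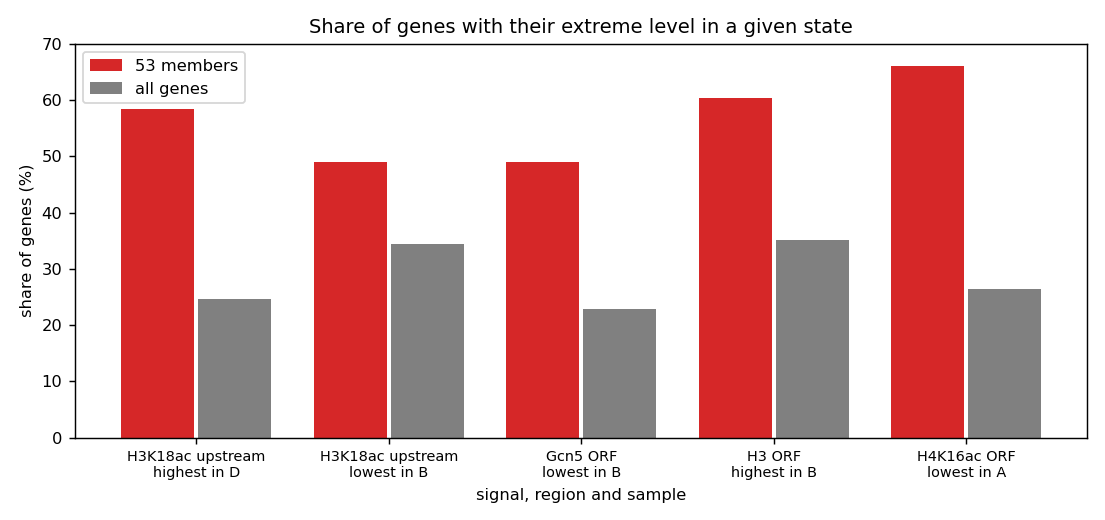
Share of genes (%) whose level was the highest or the lowest of the 5 samples in the sample named, for 53 amino acid biosynthesis genes (red) and all 5985 genes (grey). The red bars stand at 58.5%, 49.1%, 49.1%, 60.4% and 66% and the grey bars at 24.6%, 34.5%, 22.9%, 35.1% and 26.4%.

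H4K16ac over the 5′IGR stayed close to the other genes. Its median difference between samples B and A was -0.043, against -0.022 in all genes, with 3 of 53 genes higher by at least 0.2 (4.86% of all genes) and 7 lower (8.94% of all genes). The 3 higher genes were ILV5, with -0.123 in sample B against -0.467 in sample A, BAT2, with 0.520 against 0.189, and HIS4, with 0.022 against -0.191. The largest falls were in GLN1, with 0.326 in sample B against 0.750 in sample A, LYS4, with 0.442 against 0.849, and ILV2, with -0.099 against 0.188. LYS4 was thus lower over its 5′IGR in sample B than in A for Gcn5, H3K18ac and H4K16ac alike, by 0.357, 0.644 and 0.407 on the log scale, while its H3 differed by -0.111.

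ARG1 (YOL058W), argininosuccinate synthetase and a standard gene for studies of Gcn4 and SAGA, was highest in sample D for 5′IGR Gcn5 and H3K18ac. Its 5′IGR Gcn5 was -0.156, -0.159, -0.178, -0.033 and -0.062 and its 5′IGR H3K18ac 0.158, 0.221, 0.071, 0.324 and 0.216 in samples A to E. H3K18ac in sample D was above that in sample C by more than 0.2. ARG3 and ARG56 had the lowest 5′IGR H3K18ac of the 53 genes in sample A, -0.683 and -0.634, and TRP3, ILV3 and ASN2 the highest, 1.488, 1.749 and 1.913.

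In 30 other genes of amino acid biosynthesis, those of methionine, cysteine, proline and further routes, sample D was the highest for 5′IGR H3K18ac in 16, against 24.6% of all genes. Their median difference between samples D and C was 0.146, with 11 of 30 higher by at least 0.2 (20.8% of all genes) and 0 lower (13.7%). Between samples B and A it was -0.094, with 6 lower (22.4% of all genes) and 2 higher (13.1%). For ORF H3 26 of 30 were higher in sample B than in A, against 60.8% of all genes, and for ORF Gcn5 7 of 30 were, against 56.0%. In 6 regulators of these pathways (GCN4, LEU3, LYS14, ARG80, ARG81 and BAS1) sample D was the highest for 5′IGR H3K18ac in 0 of 6, against 24.6% of all genes, and sample B the lowest in 5 of 6, against 34.5%.

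None of the 54 genes overlaps another protein-coding gene, and 19 share their upstream region with a divergent protein-coding neighbour. Non-coding transcripts were not examined. Among the 34 of 53 genes without a divergent neighbour, sample D was the highest for 5′IGR H3K18ac in 20. In the 53 genes the count was 31 (58.5%), and over all genes the share was 24.6%.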

How the data were processed

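ChIP-on-chip of Gcn5, H3K18ac, H4K16ac and H3 was carried out in samples A to E on Affymetrix *S. cerevisiae* tiling arrays, with input DNA as control. The authors computed the signal with Tiling Analysis Software, set the 5 samples to one median and averaged it over 38 bins per ORF. The authors deposited each bin as a score on a log scale of unnamed base. Genome build and annotation are not given in the sources used here. The 20 files hold 1 value per antibody and sample, and whether it combines the 2 cultures or comes from 1 is not stated. Precision is limited by how few arrays there are. The methods list the same catalogue number for the H3K18ac and the H3 antibody.

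For each antibody the 5 samples were again brought to the mean of their medians over all bins of the 5985 genes. As deposited, these medians still differed between samples, from -0.090 to -0.054 for Gcn5 and from 0.110 to 0.145 for H3. With values as deposited, the median 5′IGR Gcn5 difference between samples B and A was -0.055, against -0.025 after this step. 1 ORF with absolute values above 20 was left out. H3 correction was subtraction per gene, bin and sample. Symbols, lengths and neighbours came from the RefSeq gene table of assembly R64 (all 54 genes matched). Its coordinates were used to find overlaps, neighbours and the distances to them, but not to place the bins. The steps were tested on simulated data. Python 3.11.15, numpy 2.4.6, pandas 2.3.3 and matplotlib 3.10.9 were used.

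Genes named in the text are 12 well-studied genes, the 3 largest rises and falls between samples B and A in each 5′IGR signal and in ORF Gcn5, and the gene of each pathway with the highest 5′IGR Gcn5 in sample A. Others were chosen after their values were seen. 1 of the well-studied genes is counted but not reported here.. Members and lists were chosen with earlier results of these data known. Alternatives were other normalizations, regions, thresholds, gene subsets and comparison samples. Bins of the 53 genes that were exactly 0 numbered 26 in the Gcn5 file of sample A, 9 in the H4K16ac file of sample E and 0 in the others.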

Additional observations from a re-analysis of the deposited data

How the results depend on the processing

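Of 100 alternative values for 13 medians, 98 kept their sign. The median of 5′IGR Gcn5 between samples B and A was 0.020 over bins 5-8, and that of ORF H3K18ac was -0.033 with H3 subtracted. With H3 subtracted the medians between B and A were -0.136 for 5′IGR Gcn5, -0.156 for 5′IGR H4K16ac, -0.127 for ORF Gcn5 and 0.014 for ORF H4K16ac, and between D and C 0.109 for 5′IGR Gcn5 and 0.103 for 5′IGR H4K16ac. Quantile normalization gave -0.085 for 5′IGR and -0.0795 for ORF Gcn5, and values as deposited -0.082 for ORF Gcn5. The central 40% of the ORF gave 0.112 for H3K18ac. Sample E in place of A gave 0.020 for ORF H4K16ac and 0.018 for ORF H3. D minus E was added after the data were seen and left every D minus C median with its sign and within the spread between samples.

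Counts at 0.2 between B and A, and counts of the highest or lowest sample, moved by more than 1.5 times as follows. At 0.1 there were 16 higher and 17 lower for 5′IGR Gcn5, 30 lower for H3K18ac, 7 higher and 18 lower for H4K16ac, and 28 higher and 6 lower for H3. At 0.3 there were 4 higher for Gcn5, 2 higher and 12 lower for H3K18ac, 2 lower for H4K16ac and 7 higher for H3. For 5′IGR Gcn5 quantile normalization gave 4 higher and 13 lower, values as deposited 12 lower, and bins 5-8 12 higher. Against sample E, H4K16ac had 5 higher and 2 lower. In the 34 genes without a divergent neighbour, fewer by construction, 3 were lower for Gcn5 and 7 higher for H3, and sample D was highest for H3K18ac in 20, sample B for ORF H3 in 21 and sample A lowest for ORF H4K16ac in 20. With H3 subtracted, sample A was lowest for ORF H4K16ac in 15 of 53 genes, against 19.7% of all genes. The count of genes with their lowest ORF Gcn5 in sample B, 26 in the main setting, moved by less than that. It was 20 over the central 40% of the ORF (21.9% of all genes) and 37 as deposited (38.2%). No paired analysis was possible because the files hold 1 value per antibody and sample. The planned search for sequence motifs was not run.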

Other observations

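Over the 3′IGR, the median Gcn5 level of the 53 genes between samples B and A differed by 0.131, close to the 0.107 of all genes. Across the 53 genes, differences between samples B and A over the ORF had a Spearman rank correlation of 0.65 between H3K18ac and H4K16ac, against 0.53 across all 5985 genes, and -0.05 between H3K18ac and H3. These are correlations across genes of the same chromatin samples, and genes are not independent replicates. Over the 5′IGR, the correlation between Gcn5 and H3 differences was -0.37 across the 53 genes and -0.10 across all genes.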
